A study of Mus musculus with 22 samples.

Results

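The genes described are the 7 that carry bile acids through the cells of the distal small intestine and report their passage: Fabp6, Slc10a2, Slc51a, Slc51b, Fgf15, Nr1h4 and Nr0b2. They were taken by name, matched by Ensembl identifier, out of 54838 genes in a table of read counts. The counts come from 22 RNA sequencing libraries of female adult FVB/N mice kept in a conventional animal house. GRWT mice carried the wild-type glucocorticoid receptor, and GRDim mice carried a point-mutant receptor that forms dimers poorly. Both came from the same crosses of heterozygous parents, and the mutation was present in every tissue of the GRDim mice. Drinking water was plain or held 25 mM ZnSO4, given for 7 days. GRWT mice are represented by 5 libraries for each kind of water and GRDim mice by 6 for each. The description of the series also names DEX, which no sample label carries, and it says that sequencing was done in 2 sets without saying which library was in which.

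The libraries are labelled ileum (12) or IEC, for intestinal epithelial cells scraped from the distal ileum (10), but these labels did not follow the content of muscle. Whether the labels ileum and IEC were exchanged for some libraries cannot be told here, and library names, replicate numbers and fits with the tissue label use them as given. Myh11, the myosin heavy chain of smooth muscle, was at 298 to 463 CPM (the count divided by the library total and multiplied by 1000000) in 12 libraries and at 3.22 to 20.5 CPM in the other 10, and 7 of the 10 IEC libraries were among the 12. Levels in the conditions are therefore given apart for muscle-rich libraries (Myh11 over 100 CPM) and muscle-poor libraries, and a range or fit that pools both classes is named as such. In GRDim mice, the muscle-rich libraries on water are all labelled IEC and those on zinc are all labelled ileum, and the muscle-poor libraries are the other way round, so within a class the drinking water and the tissue label cannot be told apart in these mice. The tested muscle-poor GRWT zinc library is labelled ileum, so genotype and label cannot be told apart in that class on zinc either. Muscle-rich GRWT libraries carry both labels on each kind of water. Markers of other cells moved with the classes too: 6 immune genes summed to 1249 to 5395 CPM in muscle-rich and 74.2 to 186 CPM in muscle-poor libraries, and 10 epithelial genes to 19472 to 23056 and 24712 to 29540 CPM. Most of the immune sum of the muscle-rich libraries was Jchain, a plasma cell gene (1084 to 4981 CPM, and 7.48 to 36.2 CPM in muscle-poor libraries), whereas the T cell gene Cd3e (3.26 to 21.6 and 4.73 to 13 CPM) overlapped between the classes and Cd8a had the higher median in muscle-poor libraries (22.6 and 47.4 CPM). A single library, GRWT zinc ileum replicate 3, stood apart in the genes of interest and is shown on its own; it enters no mean and no test. Totals were 13149951 to 15620744 counts per library, so that 3 counts, taken as the floor of detection, correspond to 0.192 to 0.228 CPM. No label says that the libraries of a group came from separate mice, so the p-values measure the spread between these libraries.

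Bile acids are made in the liver and recovered in the ileum. Slc10a2 (also called ASBT) takes them up from the lumen with sodium, Fabp6 binds them inside the cell, and Slc51a and Slc51b together form the OST exporter that passes them to the portal blood. Inside the cell they activate FXR, the nuclear receptor encoded by Nr1h4. FXR induces Fgf15, a hormone that travels to the liver and lowers bile acid synthesis, and Nr0b2, which encodes SHP, a repressor that lacks a DNA-binding domain. In liver and gut SHP restrains genes of bile acid synthesis and uptake.

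FXR binds DNA with RXR at an inverted repeat of a 6-letter site spaced by 1 base, AGGTCANTGACCT, which reads the same on both strands. This motif was searched in the RefSeq promoters (GRCm38.p6, 250 bases before to 50 after the start) of 6 of the 7 genes, and the upstream part of the Fabp6 promoter is shown because it held the best match among them, chr11:43601563-43601812, minus strand. Capitals mark its pair of equal best matches, each with 2 mismatches among 12 defined letters.

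Fabp6: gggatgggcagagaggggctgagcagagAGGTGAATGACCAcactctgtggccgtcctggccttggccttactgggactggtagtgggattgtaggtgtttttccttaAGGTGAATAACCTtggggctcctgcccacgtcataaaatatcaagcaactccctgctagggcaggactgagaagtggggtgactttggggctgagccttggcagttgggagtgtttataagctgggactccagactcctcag

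Of 32851 promoters searched, 1.14% held a match as good. The best matches of the 2 exporter genes had 3 mismatches, which 11.4% of promoters reached. They are set beside the Fabp6 pair for comparison, with the letters that match the motif in capitals. Distances are from the RefSeq start, and the annotated GENCODE gene of Slc51b begins upstream of it, at the match itself. The GENCODE genes of Slc10a2 and Nr1h4 also begin upstream of their RefSeq starts, at chr8:5105351 and chr10:89533585 on the minus strand, so that the Nr1h4 window (chr10:89506659-89506908) lies within its GENCODE gene.
Fabp6, 222 to 210 bases before the start: AGGTgAATGACCa
Fabp6, 142 to 130 bases before the start: AGGTgAATaACCT
Slc51a, 79 to 67 bases before the start: AGGaCtTTGtCCT
Slc51b, 187 to 175 bases before the start: gGGTCATTcACCc
Slc10a2, Nr1h4 and Nr0b2 had nothing better than 4 mismatches, which 56.4% of promoters held. The palindromic glucocorticoid response element, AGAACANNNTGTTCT, was matched with 4 to 6 mismatches in all 6 promoters, and 57% to 99.9% of promoters did as well. These matches describe letters in short windows, not sites of binding, and no such sequence was used here for Fgf15.

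On mm10, Fabp6 (ENSMUSG00000020405) lies on chromosome 11 from 43596049 to 43601540, Slc10a2 (ENSMUSG00000023073) on chromosome 8 from 5083219 to 5105351, Slc51a (ENSMUSG00000035699) on chromosome 16 from 32474504 to 32487879, Slc51b (ENSMUSG00000053862) on chromosome 9 from 65412714 to 65422955 and Nr1h4 (ENSMUSG00000047638) on chromosome 10 from 89454234 to 89533585, all on the minus strand. Fgf15 (ENSMUSG00000031073, chromosome 7 from 144896531 to 144900953) and Nr0b2 (ENSMUSG00000037583, chromosome 4 from 133553376 to 133556536) lie on the plus strand. Counts are over whole genes. Exons of Slc51a share 567 bases with Pcyt1a on the other strand, those of Slc51b 91 bases with Rasl12 and those of Fgf15 761 bases with its antisense gene Gm26793, and since the strand setting of the counting is not stated, reads in these stretches cannot be assigned to one gene with certainty.

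In the 21 libraries other than the one shown alone, Fabp6 was the most abundant of the 7 genes. Its level was 4387 to 10866 CPM, with a median of 9047. The other carriers followed, with Slc10a2 at 842 to 1604 CPM, Slc51a at 629 to 1385 CPM and Slc51b at 173 to 291 CPM. Per kilobase of exon, the level of Fabp6 in muscle-rich GRWT water libraries was 17092 ± 2329 CPM per kb (SD, n = 3), against 310 ± 43.1 for Slc10a2, 351 ± 25.6 for Slc51a and 344 ± 14.9 for Slc51b. Those 3 do not differ beyond their spread, and the 2 exporter subunits stood at a ratio of 0.773 to 1.54 per length over the 21 libraries, lowest in muscle-rich GRDim water libraries (0.773 to 0.801). Nr1h4, the receptor, was at 77 ± 7.98 CPM per kb in the same GRWT libraries. Fgf15 and Nr0b2 came last, at 12.7 ± 4.78 and 12.4 ± 3.72 CPM per kb, a pair that does not differ beyond its spread.

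The genes also differed in how much they varied. Nr1h4 stayed between 165 and 281 CPM over the 21 libraries, Fgf15 ran from 1.57 to 103 CPM and Nr0b2 from 0.195 to 29.8 CPM, with 2 libraries at or under the floor of 3 counts. The plot of levels by condition shows this spread.

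**Figure D1:**
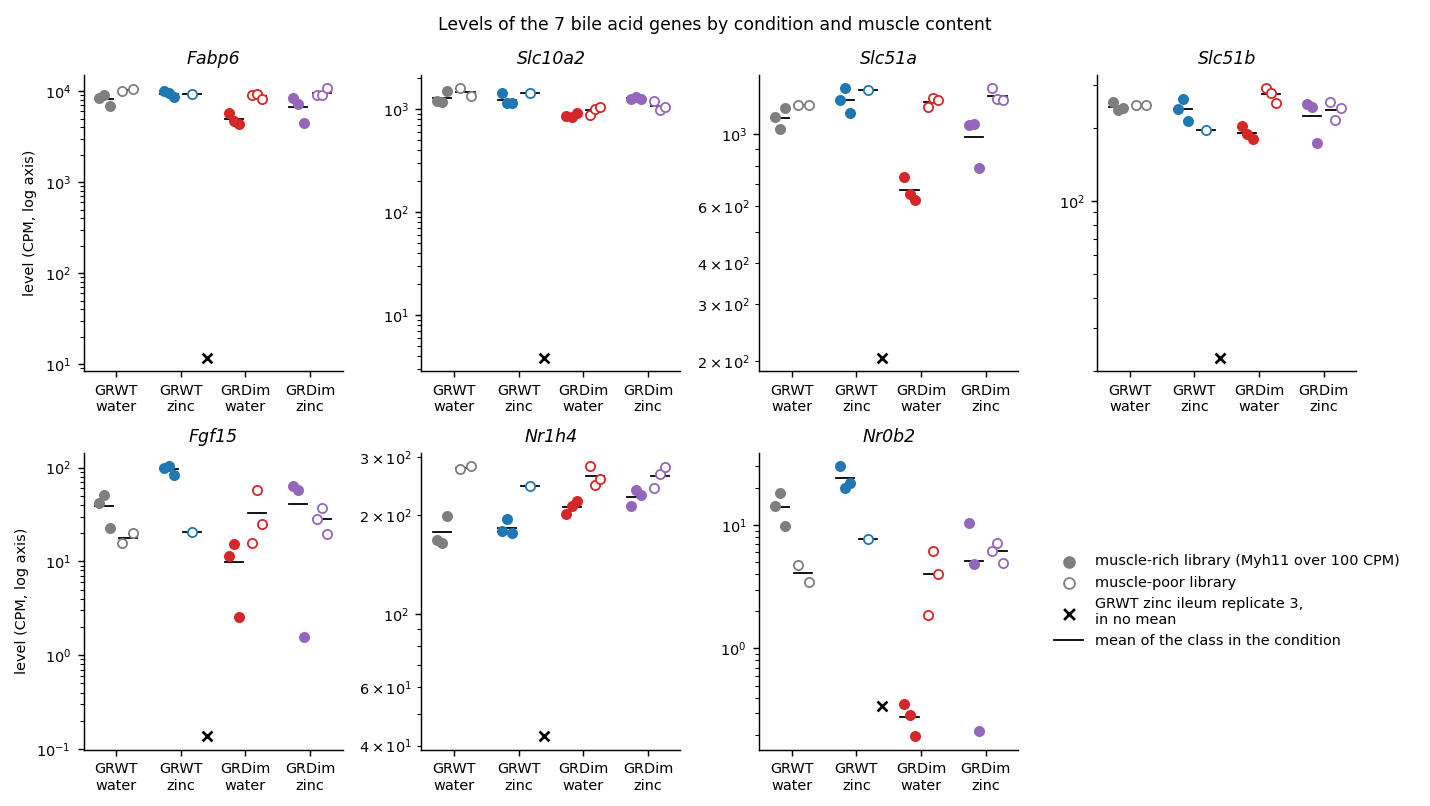
Level of each of the 7 genes in CPM (log axis, scaled for each gene) in the 4 conditions. Each point is a library, filled for muscle-rich and hollow for muscle-poor, the bars are means of a class within a condition, and the cross is GRWT zinc ileum replicate 3. The red filled points, muscle-rich GRDim water libraries, are the lowest of the muscle-rich groups by mean for 6 genes, and lie at 0.195 to 0.354 CPM for Nr0b2.

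In GRWT zinc ileum replicate 3, every one of the 7 genes but Nr0b2 was below the range of the other libraries. Fabp6 was at 11.7 CPM, Slc10a2 at 3.83, Slc51a at 205, Slc51b at 22.7, Nr1h4 at 42.7 and Fgf15 at 0.137 CPM, which is under the floor. Nr0b2 was at 0.342 CPM, inside the range of all 21 others but below the 1.85 to 7.76 CPM of the muscle-poor ones. The uptake carrier and the binding protein were thus far under their levels elsewhere, while the exporter subunit Slc51a was still at 205 CPM.

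Genes of the proximal small intestine were high in the same library. A list of 12 such genes summed to 27453 CPM there, with all 12 above the floor, and to 589 to 962 CPM in the others; 10 of the 12 were above the range of the others, Cybrd1 was within it and Slc40a1 under it. Lct, the lactase of the upper gut, was at 4274 CPM against 0 to 7.56 in the others, Apoa4, an apolipoprotein of fat absorption, at 9653 against 21.8 to 188, and Gata4, a transcription factor of the jejunum and duodenum, at 159 against 1.33 to 12.3. The 6 other ileal genes did not all fall: Cubn and Amn, which form the receptor for the vitamin B12 carrier, were at 1389 and 149 CPM, above the 173 to 1228 and 49.5 to 140 CPM elsewhere, whereas the hormone genes Nts, Pyy and Gcg were at 37.9, 2.33 and 15 CPM, below all others. Of the colon list, Retnlb, a goblet cell gene, was at 33.5 CPM against 538 to 1134, whereas Slc37a2 was at 33.2 against 0.0706 to 4.07 and Aqp8 at 3.01 against 0 to 0.205. The segment that this library came from is not given beyond the label ileum.

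**Figure D2:**
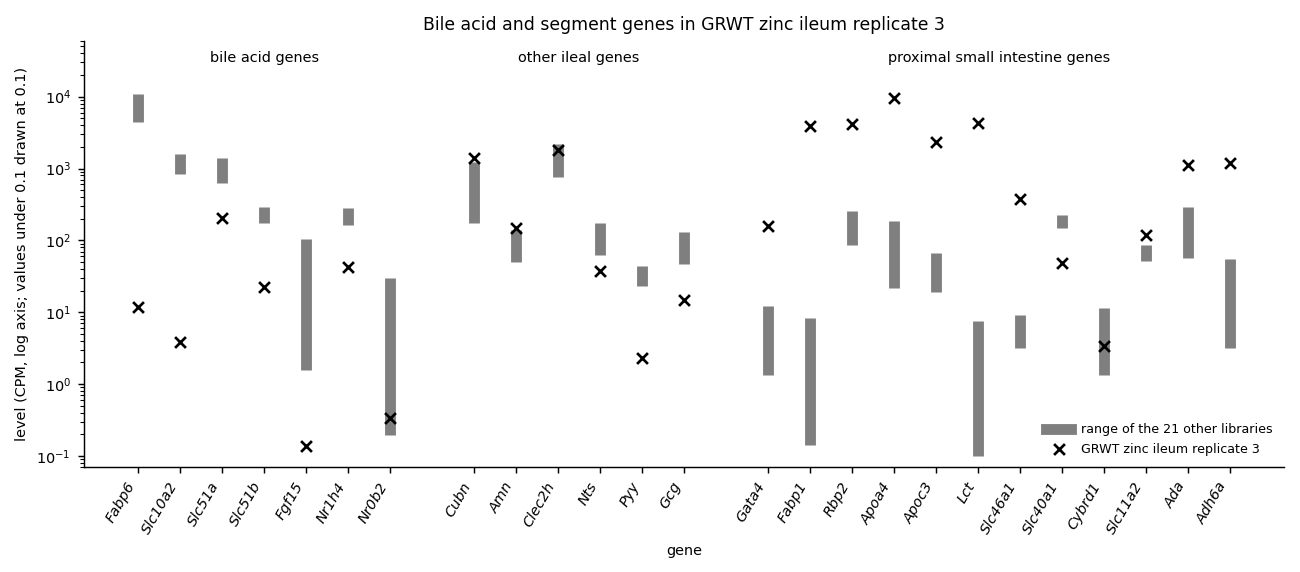
Level in CPM (log axis) of the 7 bile acid genes, 6 other ileal genes and 12 genes of the proximal small intestine. Grey bars span the 21 other libraries and crosses are GRWT zinc ileum replicate 3, where Fabp6 was at 11.7 CPM and Lct at 4274 CPM.

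Muscle content went with the level of several of the 7 genes before any condition was compared. Nr1h4 did not overlap between the classes, at 165 to 239 CPM in muscle-rich and 242 to 281 CPM in muscle-poor libraries. How many of all genes did the same was not counted. Fabp6 was higher in muscle-poor libraries of GRDim mice on water (8926 ± 551 against 4938 ± 734 CPM, SD, n = 3 each), while in GRWT mice on water the means were 10244 (n = 2) and 8187 (n = 3). Nr0b2 went the other way in GRWT mice on water, with 4.71 and 3.43 CPM in the muscle-poor and 9.76, 14.3 and 18.2 CPM in the muscle-rich libraries. In bulk tissue, fewer cells of a type and less RNA per cell cannot be told apart.

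The first comparison asks how the receptor mutation bears on these genes in mice on normal water. In muscle-rich libraries, Slc10a2, Fabp6, both exporter subunits and Nr0b2 were lower in GRDim mice and Nr1h4 was higher, while Fgf15 did not pass the test. The 3 GRWT libraries (ileum 1, IEC 4, IEC 5) and the 3 GRDim libraries (IEC 4, 5 and 6) did not overlap for any of the 7 genes, with GRDim lower for 6 and higher for Nr1h4. Of all 15780 genes tested, 26.3% were lower and 27.8% were higher without overlap in this contrast. By adjusted p-value (edgeR quasi-likelihood test, Benjamini-Hochberg over all genes), 6 of the 7 passed 0.05, beside 36.4% of all genes. The median log2 fold change of the 7 was -0.74, against -0.01 over all genes.

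Slc10a2, the uptake carrier, was at 1492, 1205 and 1162 CPM in the muscle-rich GRWT libraries and at 867, 842 and 918 CPM in the GRDim libraries. It fell by 0.57 ± 0.11 on the log2 scale (SE, adjusted p = 0.000336). Fabp6 was at 6940, 8529 and 9092 CPM against 5771, 4656 and 4387 CPM. Every GRDim library was thus under every GRWT library for the carrier and for the binding protein, and Fabp6 fell by 0.74 ± 0.19 (adjusted p = 0.00588).

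Slc51a was at 1202, 1130 and 1039 CPM in GRWT and 736, 655 and 629 CPM in GRDim libraries, a fall of -0.75 ± 0.11 (adjusted p = 2.22e-05). Its partner Slc51b was at 240, 256 and 236 against 204, 188 and 180 CPM, a smaller change of -0.37 ± 0.13 (adjusted p = 0.0339). Both exporter subunits were lower, and the larger change was that of Slc51a, although the difference between the subunits was not tested. Slc51b no longer passed without GRDim water IEC 5 or 6, GRWT water IEC 4 or GRWT water ileum 1 (adjusted p of 0.0751, 0.0986, 0.0832 and 0.0619). It also did not pass with the muscle-rich libraries fitted alone.

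Nr1h4 was at 199, 168 and 165 CPM in GRWT and at 202, 213 and 220 CPM in GRDim libraries. The receptor gene was slightly higher, by 0.24 ± 0.08 (adjusted p = 0.0252). It no longer passed without GRDim water IEC 5 or 6, or GRWT water IEC 4 or 5 (adjusted p of 0.0563, 0.0754, 0.0969 and 0.106).

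The widest contrast was that of Nr0b2, the gene of SHP. It had 139, 217 and 244 counts in the muscle-rich GRWT water libraries, or 9.76, 14.3 and 18.2 CPM, and 5, 4 and 3 counts in the GRDim libraries, or 0.354, 0.29 and 0.195 CPM. The GRDim libraries are at or just above the floor, and summed over the 3 libraries the level was 50.5 times lower (95% interval of 28.7 to 98.3, exact binomial, counting error only). The fitted change was -5.63 ± 0.95 (adjusted p = 0.000403). Fgf15, the hormone gene, was at 22.8, 42 and 51.4 CPM in GRWT and at 11.5, 15.5 and 2.54 CPM in GRDim libraries. Its groups did not overlap, but the change of -2.0 ± 0.87 missed the threshold (adjusted p = 0.0900); it passed (-2.01, adjusted p = 0.0141) when GRDim zinc ileum replicate 3, which shares the estimate of spread, was left out.

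Muscle-poor libraries gave another picture on water. Slc10a2 was the single gene of the 7 to pass, beside 5.87% of all genes, at 1604 and 1350 CPM in GRWT and 881, 999 and 1048 CPM in GRDim libraries. It was lower by nearly the same amount as in muscle-rich libraries, -0.68 ± 0.12 (adjusted p = 0.00187). The pass ended (-0.56) without GRWT water ileum 2, which left a single GRWT library. Fabp6 was at 9967 and 10520 CPM against 9154, 9327 and 8297 CPM, so that the groups do not overlap, as for 11.2% of all genes in this direction, but the difference of -0.28 did not pass (95% interval of -0.73 to 0.16).

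The other carriers and FXR genes did not pass in this class. Slc51a was at 1229 and 1226 CPM in GRWT and 1211, 1291 and 1270 CPM in GRDim libraries, with an interval of -0.30 to 0.20. Slc51b was at 247 and 249 CPM against 291, 278 and 253 CPM (interval -0.24 to 0.36), and Nr1h4 at 276 and 281 against 281, 247 and 258 CPM (interval -0.36 to 0.02). Nr0b2 was at 4.71 and 3.43 against 1.85, 6.2 and 4 CPM, and Fgf15 at 15.8 and 20.1 against 15.8, 57.1 and 24.9 CPM, so that the groups overlap for both genes and their intervals are wide (-1.78 to 1.57 and -1.24 to 2.78).

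The difference between the classes was itself tested. The genotype contrast on water differed between muscle-poor and muscle-rich libraries for Slc51a (by 0.70 ± 0.16, adjusted p = 0.0113), Nr1h4 (by -0.42 ± 0.12, adjusted p = 0.0395) and Nr0b2 (by 5.52 ± 1.31, adjusted p = 0.021), 3 of the 7, beside 7.81% of all genes. It was not shown to differ for Slc10a2 (-0.12, 95% interval -0.45 to 0.22) or for Fabp6 (0.46, -0.14 to 1.06). The 3 differences kept their sign when any library was left out, but the call ended for Slc51a without GRWT water ileum 3 (0.70, adjusted p = 0.0634), for Nr0b2 without that library, GRDim water IEC 5, GRDim water IEC 6 or the unnumbered GRDim water ileum library a (5.08 to 5.55, adjusted p of 0.0527 to 0.0981), and for Nr1h4 without any of 8 libraries: GRDim water IEC 5 or 6, unnumbered library a or b, GRWT water IEC 4 or 5, and GRWT water ileum 2 or 3 (-0.43 to -0.37, adjusted p of 0.0623 to 0.163).

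Sums of cell and segment markers moved with the genotype in the muscle-rich libraries. The 6 immune genes summed to 4355 to 5395 CPM in GRDim and 1610 to 2089 CPM in GRWT libraries on water, and the 6 other ileal genes to 1197 to 1308 and 2210 to 2824 CPM. Most of that immune sum was Jchain (3922 to 4981 and 1438 to 1876 CPM), and Cd8a was at 53.4 to 58.8 and 9.69 to 12.8 CPM. In the muscle-poor libraries the immune sums were 152 to 186 and 97.6 to 132 CPM and the ileal sums 2140 to 2573 and 3006 to 3390 CPM. The largest part of the ileal sum was Clec2h, at 750 to 1990 CPM in all muscle-rich and 1391 to 2210 CPM in all muscle-poor libraries. That sum was 3391 CPM in GRWT zinc ileum replicate 3, where Fabp6 was at 11.7 CPM. Epithelial genes summed to 21476 to 22445 CPM in the muscle-rich GRDim and 20256 to 20554 CPM in the muscle-rich GRWT libraries on water, each GRDim library being above each GRWT library. The part of these shifts in the result was not tested.

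**Figure D3:**
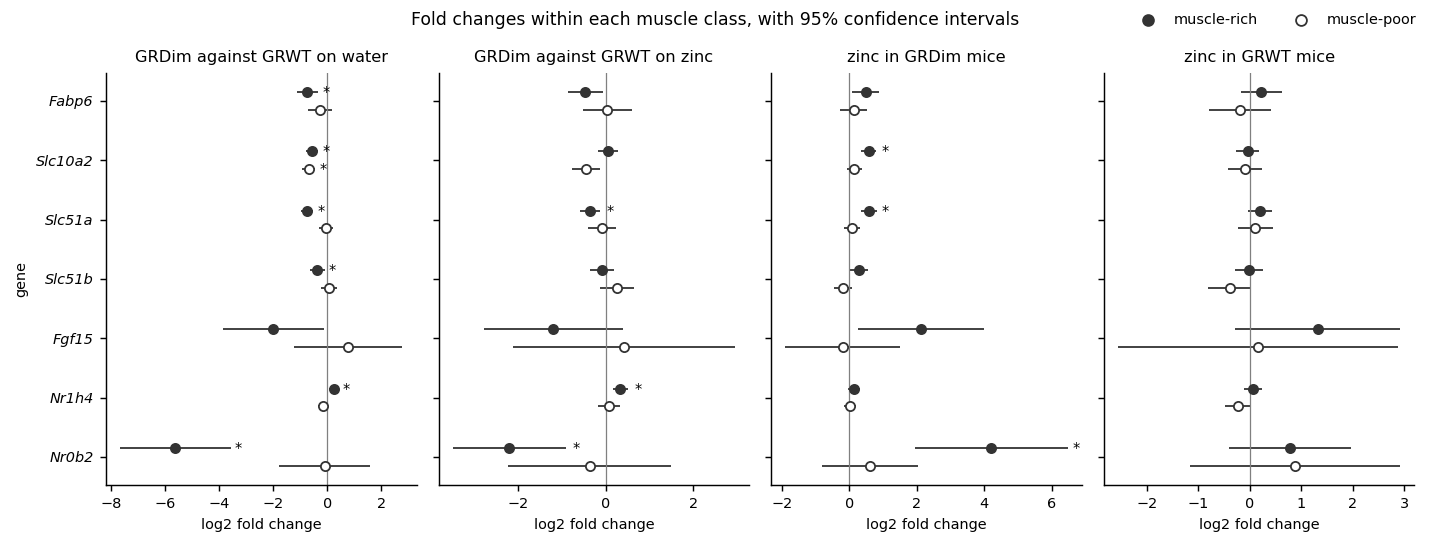
Log2 fold change of each gene within muscle-rich (filled) and muscle-poor (hollow) libraries for 4 comparisons, with 95% confidence intervals from 1 edgeR fit; stars mark an adjusted p under 0.05. On water, Nr0b2 in muscle-rich libraries lies at -5.63 and in muscle-poor libraries at -0.10, whereas Slc10a2 lies at -0.57 and -0.68.

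With both classes in 1 fit and muscle class as a covariate, the calls on water at the fold cut-off of the study (log2 fold change beyond 0.8 and adjusted p under 0.05) came to 1 of the 7, Nr0b2, beside 7.33% of all genes. Its change was -2.23 ± 0.79 (adjusted p = 0.0389), and the call ended when any of 7 libraries was left out: GRDim water IEC 4, 5 or 6, GRDim water ileum 1, GRWT water IEC 4 or 5, or GRWT water ileum 1 (-2.25 to -1.88, adjusted p of 0.0569 to 0.0911). By adjusted p-value alone 4 passed, beside 33.2% of all genes: Nr0b2, Slc10a2 (-0.61 ± 0.10, adjusted p = 0.000185), Fabp6 (-0.51 ± 0.15, adjusted p = 0.0149) and Slc51a (-0.41 ± 0.12, adjusted p = 0.0139). The last 3 kept their side of 0.05 in each fit that left out 1 of the 21 libraries, but none of them passed with GRWT zinc ileum replicate 3 included (Slc10a2 at adjusted p = 0.509, Fabp6 at 0.667 and Slc51a at 0.353). With no covariate, Slc10a2 passed (adjusted p = 0.00844) while Fabp6 (0.407) and Slc51a (0.535) did not, and with no low-count filter Fabp6 and Slc51a just missed (adjusted p of 0.0516 and 0.0503). With the tissue label in place of the muscle class, Slc10a2 passed (-0.56, adjusted p = 0.00411), while Fabp6 (-0.39, adjusted p = 0.402) and Slc51a (-0.28, adjusted p = 0.51) did not.

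The second comparison asks what 7 days of zinc did in GRDim mice. In muscle-rich libraries, 2 of the 4 carriers and Nr0b2 were higher on zinc, and 1 zinc library, ileum 3, was as low as the water libraries for some of the 7 genes. Slc10a2 was at 867, 842 and 918 CPM on water and at 1248, 1323 and 1243 CPM on zinc. It rose by 0.58 ± 0.11 (adjusted p = 0.00342), and its zinc libraries lay within the range of the muscle-rich GRWT water libraries. Slc51a was at 736, 655 and 629 CPM on water and 1069, 1071 and 788 CPM on zinc and rose by 0.58 ± 0.11 (adjusted p = 0.00374). For both, each zinc library, ileum 3 included, was above each water library, as for 12.5% of all genes in this direction.

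Nr0b2 had 5, 4 and 3 counts on water and 141, 71 and 3 counts on zinc, that is 10.3, 4.86 and 0.214 CPM in ileum 1, 2 and 3. Ileum 3 was thus as low as the water libraries. The gene rose by 4.21 ± 1.05 in the fit (adjusted p = 0.0311), a call that ended with the muscle-rich libraries fitted alone (4.2, adjusted p = 0.0799), and summed over the libraries the level on zinc was 18.3 times higher (95% interval of 10.3 to 36.1, counting error only). Without ileum 1 it was 9.33 times higher (5.04 to 18.9) and without ileum 3 it was 27 times higher (15.2 to 53.2). Fgf15 was at 11.5, 15.5 and 2.54 CPM on water and 63.2, 57.5 and 1.57 CPM on zinc. The same library held the lowest Fgf15 of the 21, and the fitted change was 2.12 ± 0.87 with an adjusted p of 0.182.

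Fabp6 was at 5771, 4656 and 4387 CPM on water and 8442, 7204 and 4486 CPM on zinc, a difference of 0.49 ± 0.19 (adjusted p = 0.144). Slc51b was at 204, 188 and 180 against 250, 244 and 173 CPM, and Nr1h4 at 202, 213 and 220 against 213, 239 and 230 CPM. GRDim zinc ileum 3 was the lowest of the zinc libraries for 6 genes, Nr1h4 being the exception. In all, 3 of the 7 passed, all higher, beside 6.53% of all genes.

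Without GRDim zinc ileum 3, 6 of the 7 passed, all higher, beside 7.81% of all genes: Fabp6 stood at 0.72 (adjusted p = 0.00183), Slc51b at 0.44 (adjusted p = 0.00851) and Fgf15 at 2.69 (adjusted p = 0.015), with Slc10a2, Slc51a and Nr0b2. The Nr0b2 call, in turn, ended without GRDim water IEC 4, 5 or 6 or GRDim zinc ileum 1 or 2 (3.22 to 4.42, adjusted p of 0.0783 to 0.144). The 6 other ileal genes, Clec2h foremost, summed to 2064, 1809 and 1541 CPM in GRDim zinc ileum 1, 2 and 3, the 6 immune genes, Jchain foremost, to 3799, 3745 and 4851 CPM and the colon list, Retnlb foremost, to 629, 727 and 992 CPM, against 1050 to 1182 CPM for the colon list in the muscle-rich water libraries. The 6 liver genes, Alb foremost, summed to 230, 106 and 7.5 CPM in GRDim zinc ileum 1, 2 and 3, in the same order as Nr0b2, which the liver also expresses, and to 80.8, 26.9 and 7.42 CPM in GRDim water IEC 4, 5 and 6. In muscle-rich GRWT zinc libraries, where Nr0b2 was at 20 to 29.8 CPM, the liver sum was 5.06 to 25.9 CPM. The part of these markers in the result was not tested. The comparison shares the muscle-rich GRDim water libraries with the comparison of genotypes on water.

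In muscle-poor libraries of GRDim mice, no gene of the 7 passed on zinc in edgeR, beside 9.58% of all genes. None had an unadjusted p under 0.05, beside 3827 of all 15780 genes. Slc10a2 was at 881, 999 and 1048 CPM on water and 1195, 976 and 1040 CPM on zinc, a difference of 0.14 with a 95% interval of -0.08 to 0.37. Nr0b2 was at 1.85, 6.2 and 4 against 6.2, 7.19 and 4.96 CPM, and Fgf15 at 15.8, 57.1 and 24.9 against 28.6, 36.9 and 19.5 CPM. The groups overlapped for all 7 genes. The difference between the classes did not pass for any of the 7, with 4 at an unadjusted p under 0.05, beside 1233 of all 15780 genes. It was -0.51 for Slc51a (adjusted p = 0.422) and -3.60 for Nr0b2 (adjusted p = 0.57). With both classes in 1 fit, no gene of the 7 was called at the fold cut-off, beside 1.73% of all genes, and 0 were called by DESeq2. An unadjusted p under 0.05 was reached by 2 of the 7, beside 4186 of all 15780 genes. By adjusted p-value alone, Slc10a2 passed (0.37 ± 0.10, adjusted p = 0.0186), beside 11.2% of all genes. That pass ended with the tissue label as covariate (0.36, adjusted p = 0.102), with no covariate (0.35, adjusted p = 0.212) and with GRWT zinc ileum replicate 3 included (0.37, adjusted p = 0.808). Slc51a did not pass (0.31, adjusted p = 0.092), but did in DESeq2 (0.32, adjusted p = 0.0443) and among the 19 libraries with a replicate number, with the number as a block (0.51, adjusted p = 0.00474) and without it (0.45, adjusted p = 0.0239). Nr0b2, at 1.41 in the fit of both classes (adjusted p = 0.245), was called among those 19 libraries, with the block and without it.

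The third comparison is zinc in GRWT mice. The muscle-rich libraries showed higher levels of Fgf15 and Nr0b2 on zinc, with no gene of the 7 past the test, beside 0.526% of all genes. Fgf15 was at 22.8, 42 and 51.4 CPM on water and 100, 103 and 82.9 CPM on zinc, and Nr0b2 at 9.76, 14.3 and 18.2 against 29.8, 20 and 21.7 CPM. For these 2 of the 7 genes each zinc library was above each water library, as for 7.24% of all genes in this direction. The fitted differences were 1.32 ± 0.74 (adjusted p = 0.609) and 0.78 ± 0.55 (adjusted p = 0.691), with 95% intervals of -0.29 to 2.92 and -0.41 to 1.96.

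No carrier passed in GRWT mice. Slc10a2 was at 1492, 1205 and 1162 CPM on water and 1420, 1139 and 1152 CPM on zinc, a difference of -0.04 with an interval of -0.27 to 0.18. Fabp6 was at 6940, 8529 and 9092 against 10178, 9514 and 8575 CPM (interval -0.18 to 0.62), Slc51b at 240, 256 and 236 against 239, 262 and 213 CPM (interval -0.29 to 0.25), and Slc51a at 1202, 1130 and 1039 against 1270, 1382 and 1160 CPM (interval -0.03 to 0.42). The muscle-poor class holds a single GRWT zinc library, ileum 2, beside the one shown alone. There Fgf15 was at 20.8 CPM, against 15.8 and 20.1 CPM on water, and Nr0b2 at 7.76 against 4.71 and 3.43 CPM. Slc51b was at 196 CPM there, against 247 and 249 CPM on water, a difference of -0.39 with an interval of -0.81 to 0.02 (adjusted p = 0.461). In the fit of both classes no gene of the 7 was called, beside 0.152% of all genes, and 0 were called by DESeq2. An unadjusted p under 0.05 was reached by 0 of the 7, beside 1782 of all 15780 genes.

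The fourth comparison sets GRDim against GRWT mice on zinc. In muscle-rich libraries 3 of the 7 passed by adjusted p-value, beside 17% of all genes. Nr1h4 was at 179, 194 and 176 CPM in GRWT and 213, 239 and 230 CPM in GRDim libraries, higher by 0.33 ± 0.08 (adjusted p = 0.00852). Slc51a was at 1270, 1382 and 1160 against 1069, 1071 and 788 CPM, lower by -0.36 ± 0.11 (adjusted p = 0.0251), and Nr0b2 at 29.8, 20 and 21.7 against 10.3, 4.86 and 0.214 CPM, lower by -2.20 ± 0.60 (adjusted p = 0.0231). The immune genes, Jchain foremost, summed to 3745 to 4851 CPM in these GRDim and 1249 to 2263 CPM in these GRWT libraries, and the other ileal genes, Clec2h foremost, to 1541 to 2064 and 2343 to 2540 CPM. Epithelial genes summed to 22635 to 23056 CPM in these GRDim and 19472 to 21217 CPM in these GRWT libraries. The part of these shifts in the result was not tested.

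No difference was shown for Slc10a2 in muscle-rich libraries. It was at 1420, 1139 and 1152 CPM in GRWT and 1248, 1323 and 1243 CPM in GRDim mice on zinc, a difference of 0.05 with a 95% interval of -0.17 to 0.28. Slc51a no longer passed without GRDim zinc ileum 3, GRWT zinc IEC 4 or GRWT zinc IEC 5 (-0.21, -0.35 and -0.27, adjusted p of 0.156, 0.0703 and 0.123). Nr0b2 no longer passed without GRDim zinc ileum 2 or GRWT zinc IEC 4 (-2.16 and -1.98, adjusted p of 0.0695 and 0.0713). With the muscle-rich libraries fitted alone, neither passed. Fabp6 (10178, 9514 and 8575 against 8442, 7204 and 4486 CPM) and Fgf15 (100, 103 and 82.9 against 63.2, 57.5 and 1.57 CPM) were lower in every GRDim library, as were 19.6% of all genes, without passing, at -0.47 (adjusted p = 0.101) and -1.20 (adjusted p = 0.31). In muscle-poor libraries, with a single GRWT library, none passed, beside 0.234% of all genes, and Slc10a2 had the 1 unadjusted p under 0.05 (-0.45, adjusted p = 0.233). With both classes in 1 fit, no gene was called, beside 2.5% of all genes at the fold cut-off and 9.22% by adjusted p-value alone, and 0 were called by DESeq2. An unadjusted p under 0.05 was reached by 4 of the 7, beside 3992 of all 15780 genes. Nr1h4 was at 0.21 (adjusted p = 0.14) in that fit and at 0.07 (adjusted p = 0.509) when it was scaled to the epithelial genes. With that scaling, 3 passed by adjusted p-value, all lower: Fabp6 (-0.51, adjusted p = 0.0359), Slc10a2 (-0.30, adjusted p = 0.0493) and Slc51a (-0.46, adjusted p = 0.0255). Without it they were at -0.36, -0.15 and -0.32, so these genes and Nr1h4 all moved down with the scaling. The share of all genes that passed with the scaling was not counted.

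Whether zinc acted differently in the 2 genotypes was tested as an interaction. None of the 7 passed in edgeR, beside 0.0127% of all genes, and 0 by DESeq2. An unadjusted p under 0.05 was reached by 1 of the 7, beside 1721 of all 15780 genes. That gene was Slc10a2, where the effect of zinc was larger in GRDim mice by 0.46 ± 0.15 (adjusted p = 0.3). In the muscle-rich libraries alone of the fit by class, the same difference was 0.62 ± 0.15 (adjusted p = 0.0967). In that class 3 of the 7 had an unadjusted p under 0.05, beside 2095 of all 15780 genes. The others were Nr0b2 (3.43 ± 1.26, adjusted p = 0.286) and Slc51a (0.39 ± 0.15, adjusted p = 0.305). For Fgf15 the interval of the interaction in the fit of both classes was wide, -2.71 to 1.5.

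Fgf15, Nr0b2 and Fabp6 were compared from library to library. For Nr0b2 the 12 muscle-rich libraries formed separate clusters, 4 at 0.195 to 0.354 CPM (the GRDim water libraries and GRDim zinc ileum 3) and 8 at 4.86 to 29.8 CPM, so no correlation over all 12 is given. The 4 libraries low in Nr0b2 were also the 4 lowest in Fgf15 and in Fabp6 of the 12. Among the 8 others, log2 levels of Fgf15 and Nr0b2 gave a Pearson r of 0.52 (exact permutation p = 0.187) and a Spearman rho of 0.67 (exact permutation p = 0.0831), and r was 0.47 without the 2 libraries farthest from the median of Fgf15. Among the 9 muscle-poor libraries, r was 0.53 (exact permutation p = 0.146), rho was 0.50 (exact permutation p = 0.178) and r without the farthest 2 was 0.52.

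Fabp6 and Nr0b2 gave an r of 0.80 in the 8 muscle-rich libraries (exact permutation p = 0.0167), with a rho of 0.71 (exact permutation p = 0.0576) and an r of 0.78 without the farthest 2. In the 9 muscle-poor libraries r was -0.04 (exact permutation p = 0.915), rho -0.18 (exact permutation p = 0.644) and r without the farthest 2 was 0.13. Of 42 relations computed between the 7 genes in these 2 sets of libraries, none had an adjusted p under 0.05, the lowest being 0.268 for r and 0.463 for rho. The tests were two-sided, conditions are mixed within each set, and these pairs were chosen after their values were seen.

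**Figure D4:**
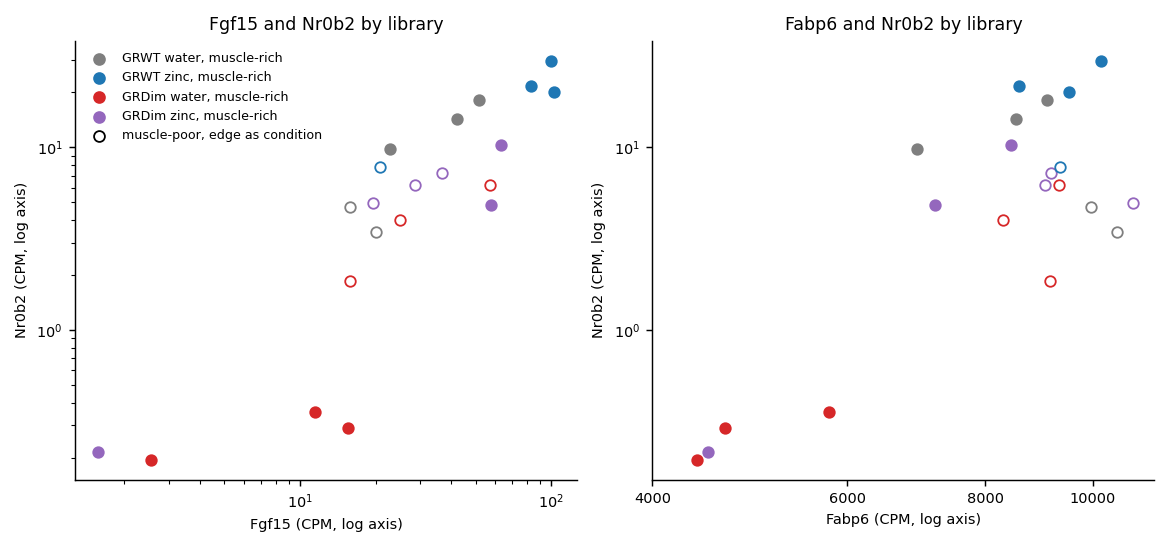
Nr0b2 against Fgf15 (left) and against Fabp6 (right), in CPM on log axes, a point for each of 21 libraries; colours are conditions, filled points muscle-rich. GRDim zinc ileum 3 (filled purple, lower left) lies with the muscle-rich GRDim water libraries in both, at 1.57 CPM of Fgf15 and 0.214 CPM of Nr0b2.

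Once the mean of each condition and class was removed, 20 libraries were left for asking which genes deviated most like each of the 7 between libraries of 1 kind. The 3 nearest of 8990 genes at a mean of 10 CPM or more, the 7 themselves left out, are given for each, as a description. For Fgf15 they were Lpcat4 (r = 0.92), a lysophospholipid acyltransferase, Slc30a1 (0.88), the zinc exporter ZnT1, and Habp2 (0.87), a secreted protease. For Nr0b2 they were Rnase4 (0.90), a secreted ribonuclease, Slc39a14 (0.90), the metal importer ZIP14, and Myrf (0.90), a membrane-bound transcription factor. These values rested in part on GRDim zinc ileum 3. Without it, Slc30a1 was at 0.77 with Fgf15 and Slc39a14 at 0.79 with Nr0b2, and Lpcat4 was at 0.89.

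The carriers had other neighbours. For Slc10a2 the nearest were Tmigd1 (0.90), Slc13a1 (0.89), the sodium and sulfate cotransporter, and Mpzl1 (0.89). For Slc51a they were Xpnpep2 (0.95), an aminopeptidase, Lmbrd1 (0.95), which exports vitamin B12 from lysosomes, and Gnpda1 (0.93). For Slc51b they were Mdh1 (0.93), Mogat2 (0.92), an enzyme of fat absorption, and Slc27a4 (0.92), a fatty acid transporter. Fabp6 had Gcnt2 (0.92), Tmem220 (0.92) and Ang (0.91), and Nr1h4 had Dhrs7b (0.92), Dctn2 (0.92) and Myo1a (0.91), a myosin of the brush border. Slc51a and Slc51b themselves gave 0.89 after the same removal, Fgf15 and Nr0b2 0.92, and Slc10a2 and Fabp6 -0.01. Without GRDim zinc ileum 3 these were 0.82, 0.82 and -0.14.

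Of 41 other genes of bile acid transport, synthesis and signalling, 33 were tested. In the fit of both classes, 6 were called in GRDim against GRWT mice on water, 5 lower and 1 higher (7.33% of all genes were called), and 18 passed by adjusted p-value, 15 lower and 3 higher, that is beside 33.2% of all genes. The median log2 fold change of the 33 was -0.18, against 0 over all genes. Called lower were Klb (-1.78, adjusted p = 0.000864), the co-receptor for FGF15, at no more than 2.63 CPM in any library, Abcc2 (-1.27, adjusted p = 0.00112), the apical conjugate exporter MRP2, Fabp2 (-1.04, adjusted p = 2.55e-05), the intestinal fatty acid binding protein, Abcb1a (-0.94, adjusted p = 0.00075), the P-glycoprotein, and Cyp27a1 (-0.90, adjusted p = 0.000267), a sterol hydroxylase of bile acid synthesis. Called higher was Abcc3 (0.94, adjusted p = 0.00262), the basolateral exporter MRP3. Within muscle-rich libraries 7 of the 33 were called, beside 10.6% of all genes, and 20 passed, beside 36.4%. Within muscle-poor libraries 1 was called, beside 1.2% of all genes, and 6 passed, beside 5.87%. The contrast differed between the classes for 5, beside 7.81% of all genes.

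With zinc in GRDim mice, 2 of the 33 were called, both higher, Abcb1a (0.89, adjusted p = 0.00378) and Abcc2 (0.84, adjusted p = 0.0306), and 14 passed by adjusted p-value, 13 higher and 1 lower. Of all genes, 1.73% were called and 11.2% passed. Abcc3 was the only call on zinc between the genotypes (0.86, adjusted p = 0.0289), beside 2.5% of all genes. None was called for zinc in GRWT mice or for the interaction, where DESeq2 also called 0. There 5 and 8 had an unadjusted p under 0.05, beside 1782 and 1721 of all 15780 genes. The calls for zinc in GRDim mice came to 1 without GRDim water IEC 4, 5 or 6, GRDim zinc IEC 4, or GRDim zinc ileum 1 or 2. Those between the genotypes on zinc came to 0 without any of the GRDim zinc ileum libraries or GRWT zinc IEC 4 or 5, and to 2 without any of the GRDim zinc IEC libraries, GRWT water ileum 3 or GRWT zinc ileum 2.

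The nuclear receptors and other genes listed by name are given whatever their result. Nr3c1, the gene of the glucocorticoid receptor itself, which is mutated at a point and not deleted, was at 208 to 339 CPM and was lower in GRDim mice on water (-0.32 ± 0.06, adjusted p = 0.000249) and higher with zinc in GRDim mice (0.28 ± 0.05, adjusted p = 0.00268). The counts cannot show the mutation. Rxra, the partner of FXR, differed by -0.18 (adjusted p = 0.0148) on water and by 0.24 (adjusted p = 0.00439) with zinc in GRDim mice. Hnf4a, at 1248 to 1660 CPM, differed by -0.02 (95% interval -0.15 to 0.10) between genotypes on water, Vdr by 0.01 (-0.12 to 0.13), and the uptake carrier Slco2b1 by 0.10 (-0.05 to 0.25). Gata4, at 1.33 to 12.3 CPM in the 21 libraries, did not pass in any comparison, with 0.81 ± 0.24 for zinc in GRWT mice (adjusted p = 0.16) as its largest difference.

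**Figure D5:**
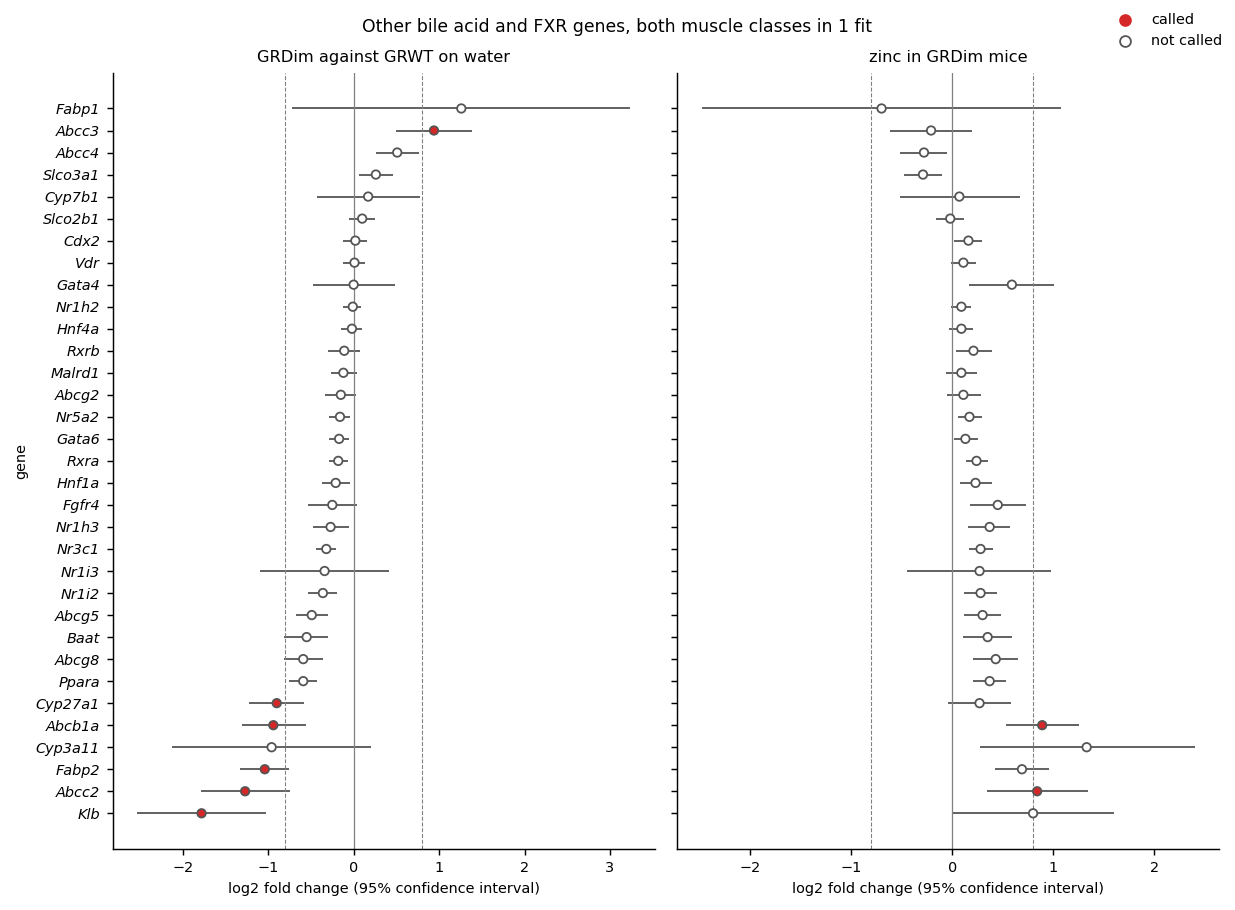
Log2 fold change with 95% confidence interval of the 33 other bile acid genes tested, both muscle classes in 1 fit, sorted by the genotype contrast on water (left) and shown in the same order for zinc in GRDim mice (right). Filled red points are called (adjusted p under 0.05 and beyond the dashed lines at 0.8 either way), 6 on the left and 2 on the right; Klb is at -1.78 on the left.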

How the data were processed

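Stranded single-end reads were mapped by the authors to mm10 with hisat (HISAT2 2.0.4 in the submitters' processing notes) and counted reads per gene with featureCounts, without reads mapping to several places. The deposited table holds raw counts. Annotation release and strand setting are not given in the sources used here, and names and lengths come from GENCODE vM21 (GRCm38), where 54809 identifiers were found. The same column name stands over 2 of the GRDim water ileum libraries, which carry no replicate number here. No pair of libraries of the same condition agreed within sampling noise.

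Counts were tested with edgeR 4.0.16 (R 4.3.3): TMM, filterByExpr, robust quasi-likelihood fit, condition plus muscle class, 21 libraries, 15780 genes. A second fit had 1 mean for each condition and class; its single muscle-poor GRWT zinc library is assumed to vary like the others. SE is the log2 fold change divided by the root of F, and intervals are 95%. A gene was called at an adjusted p under 0.05 and a log2 fold change beyond 0.8 (interaction and class differences: adjusted p alone). A gene is said to pass at an adjusted p under 0.05, whatever its fold change. DESeq2 1.42.0, other scalings, filters, covariates and left-out libraries were alternatives. The scripts were tested on simulated data. The neighbours rule took the 3 genes with the highest r of log2 CPM, leaving out the 7 themselves and predicted and immune receptor genes. Genes named besides the 7 were those of the bile acid list called in a comparison (up to 5 each, and the sixth on water) and 8 fixed ones. The 7 genes, the lists, the muscle classes and the library shown alone were chosen with earlier results of these data known.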

Additional observations from a re-analysis of the deposited data

Results flagged for a closer look

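GRWT zinc ileum replicate 3 lay far below the other 4 libraries of GRWT mice on zinc for 4 genes: Fabp6 at 11.7 CPM (others 8575 to 10178), Slc10a2 at 3.83 CPM (1139 to 1436), Slc51a at 205 CPM (1160 to 1382) and Slc51b at 22.7 CPM (196 to 262). This library had been set apart for its lack of Fabp6 and all 4 values come from it, so they restate that choice and are no independent evidence; among 28 groups examined, chance gives such a value in about 1 in 20. The list of proximal small intestine genes, whose sum was not compared between conditions, summed to 27453 CPM in the same library and to 589 to 962 CPM in the others.

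The genotype contrast on water differed between muscle-poor and muscle-rich libraries, by a test of the difference itself, for Slc51a (0.70), Nr1h4 (-0.42) and Nr0b2 (5.52). Their adjusted p-values in edgeR were 0.0113, 0.0395 and 0.021.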

How the results depend on the processing

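For GRDim against GRWT mice on water, the number of the 7 genes called was 1 with muscle class as covariate and 0 with no low-count filter, with the tissue label as covariate, with no covariate, with GRWT zinc ileum replicate 3 included (also with the tissue label) and in muscle-poor libraries alone, and 0 to 1 when single libraries were left out. The cause was not tested. Zinc in GRDim mice gave 0 calls and, among the 19 libraries with a replicate number, 1 call (Nr0b2) both with the replicate number as a block (3.47, adjusted p = 0.00473) and without a block (3.26, adjusted p = 0.0301). The numbers were not shown to pair the libraries: 23 same-numbered pairs had residual correlations of -0.35 to 0.63, 12 of them over 0.1, and 5 of 19 libraries correlated best with their own number. The median correlation was 0.15 in these pairs and -0.03 in 111 pairs of different numbers. The block changed no other count of called genes among the 7, but these 19 libraries gave other values than all 21: Nr0b2 on water was at -4.32 (adjusted p = 0.000615) with the block and -3.91 without it, Fgf15 on water at -1.7 and -1.45, and Fgf15 with zinc in GRDim mice at 1.95 and 1.75.

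The sign of small log2 fold changes depended on the setting. With GRWT zinc ileum replicate 3 included, with muscle class and with tissue label as covariate, zinc in GRWT mice gave Fabp6 -0.22 and -0.31 and Slc51a -0.07 and -0.11, and the genotype contrast on zinc gave Fabp6 0.03 and 0.18, Slc10a2 0.20 and 0.21, Slc51b 0.29 and 0.33, and, with the tissue label, Slc51a 0.12. The tissue label and no covariate each gave Slc51b 0.07 in that contrast, and the block gave 0.02. In muscle-poor libraries alone, the contrast on water gave Slc51b 0.05, Fgf15 0.76 and Nr1h4 -0.19, that on zinc gave Fabp6 0.01, Slc51b 0.23 and Fgf15 0.40, zinc in GRDim mice gave Slc51b -0.18 and Fgf15 -0.18, and zinc in GRWT mice gave Fabp6 -0.16. In muscle-rich libraries alone, Slc10a2 was at 0.05 in the contrast on zinc and Nr1h4 at 0.06 for zinc in GRWT mice. For zinc in GRDim mice, scaling to epithelial genes gave Slc51b -0.03, and the block gave Nr1h4 -0.04. Leaving out single libraries moved Slc51b from -0.18 to 0.04 (zinc in GRWT mice), -0.02 to 0.09 (zinc in GRDim mice) and -0.17 to 0.06 (genotype on zinc). With the muscle-rich libraries fitted alone, the passes by adjusted p-value ended for Slc51b on water (-0.36, adjusted p = 0.0801), Nr0b2 with zinc in GRDim mice (4.2, adjusted p = 0.0799), and Slc51a (-0.37, adjusted p = 0.0736) and Nr0b2 (-2.2, adjusted p = 0.0649) between the genotypes on zinc. Nr0b2 in muscle-rich GRDim water libraries rests on 3 to 5 counts, so depth limits its fold change.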
